A study of Mus musculus with 24 samples.

Results

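The immediate early genes Egr1, Egr2, Egr3, Ier2, Ier3, Ier5, Zfp36 and Arc, together with Srf, which encodes serum response factor, were followed in 24 mouse heart transcriptomes. They were chosen by name, as the 9 Ensembl mouse genes of 52350 in the count files whose identifiers carry these symbols, and all 9 passed the filter on low counts. The groups were ZT12-EX, wild-type C57Bl/6 male mice aged 12 weeks that ran on a treadmill at ZT12; ZT12-SED, sedentary mice of the same strain, sex and age taken at ZT12; ZT0-EX, such mice that ran at ZT0; and ZT0-SED, sedentary mice taken at ZT0. Zeitgeber time (ZT) is the number of hours since the lights came on, here with light and darkness of 12 h each, so ZT0 opens the rest phase of a mouse and ZT12 its active phase. Exercised mice had been accustomed to the treadmill and ran once for 60 min at 10 m/min on a 0% grade. The sources used here do not state how long after the run the hearts were taken. Each group held 6 mice, with the libraries of replicates 1 to 3 run on a first flow cell (flow cell 1) and those of replicates 4 to 6 on another (flow cell 2).

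Immediate early genes are transcribed within minutes of a stimulus, without new protein synthesis, and their transcripts are short-lived. At many of them, serum response factor sits on the CArG box, a short AT-rich element, and recruits either the ternary complex factors ELK1, ELK3 and ELK4, which are phosphorylated by the ERK kinases, or the myocardin-related factors, which respond to the state of actin. In the heart, serum response factor is also known for driving contractile and cytoskeletal genes, and early genes of the EGR and IER families respond there to stretch and to adrenergic stimulation. EGR1, EGR2 and EGR3 are zinc finger transcription factors, IER2 and IER5 are related nuclear regulators, IER3 modulates cell survival, ZFP36 binds AU-rich mRNAs and speeds their decay, and ARC is best known as a protein of neuronal synapses.

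Promoter sequences were examined for 5 of the 9 genes (Egr2, Ier3, Ier5, Srf and Zfp36), and those of the other members were not examined. The windows came from RefSeq on the GRCm38.p6 build, which is not the build of the counts. A CArG box was present on either strand in 1.63% of the 32851 windows of all genes. It was found in Srf, Egr2 and Zfp36, and was not found in the windows of Ier3 and Ier5. The bases just upstream of the annotated start are printed 5′ to 3′ on the strand of the gene, with CArG boxes in capitals. Shown are Srf, Egr2 and Zfp36, whose windows held boxes, and Ier3, whose window held none. Of these, Zfp36 was called with exercise at ZT0, and Zfp36, Srf and Ier3 were called by time of day. Egr2 passed in no comparison. Whether the boxes bear on these changes was not tested.
Srf promoter, chr17:46556163-46556282, minus strand: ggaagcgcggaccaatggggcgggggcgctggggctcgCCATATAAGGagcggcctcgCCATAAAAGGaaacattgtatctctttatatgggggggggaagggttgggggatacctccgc
Egr2 promoter, chr10:67537750-67537869, plus strand: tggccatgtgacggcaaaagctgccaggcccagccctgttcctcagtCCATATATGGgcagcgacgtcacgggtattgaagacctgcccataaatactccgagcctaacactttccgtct
Zfp36 promoter, chr7:28379229-28379348, minus strand: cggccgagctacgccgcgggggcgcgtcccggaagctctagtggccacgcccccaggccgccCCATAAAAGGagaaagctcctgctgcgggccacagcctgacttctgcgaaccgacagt
Ier3 promoter, chr17:35821593-35821712, plus strand: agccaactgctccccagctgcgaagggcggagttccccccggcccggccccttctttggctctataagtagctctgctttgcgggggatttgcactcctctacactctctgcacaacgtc
Counting from the annotated start, Srf carried 2 boxes with first bases at -82 and -62. The box of Zfp36 began at -58, and that of Egr2 at -73 in the window shown, which is 1 of 5 windows listed for Egr2. The motif GCGNGGGCG, to which EGR proteins bind, occurred in 5.55% of all windows and was present in those of Srf and Zfp36. These are matches of letters and no measure of binding.

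Library totals ranged from 9697334 to 23067191 counts. All 8 cardiomyocyte markers, among them Myh6 and Tnnt2, were present in every group. The mean log2 CPM of 12 fast skeletal muscle markers was 6.09 to 7.89 in 6 flow cell 2 libraries (ZT12-EX 6, ZT12-SED 6, ZT0-EX 4, 5 and 6, and ZT0-SED 6, called muscle-marked here) and -0.64 to 2.24 in all others. The summed CPM of these markers, some of which heart muscle also expresses, was 140 to 1067 on flow cell 1 and 1975 to 7116 on flow cell 2, and its highest value was in ZT12-EX 4, which is not among the 6. ZT12-EX 4, ZT12-SED 1 and ZT12-SED 2 were the 3 libraries that correlated least with the others. On flow cell 1, the Spearman correlation of gene levels, relative to the average library, with transcript GC content was between -0.72 and -0.58 in ZT12-EX, -0.82 and -0.76 in ZT12-SED, -0.23 and -0.18 in ZT0-EX, and -0.51 and 0.24 in ZT0-SED (across genes, which are not independent replicates). On flow cell 2 it lay between 0.44 and 0.70 in every library. Mitochondrial transcripts took 40.7% to 55.1% of counts in ZT12-SED hearts on flow cell 1, and 2.70% to 36.6% in all other libraries. Because whole hearts were sequenced, a change in the number of cells that express a gene and a change in RNA per cell cannot be told apart.

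The 9 genes spanned a wide range of abundance. On the scale of CPM per kilobase of exon (counts scaled to the TMM-adjusted library total, divided by exonic length, group means of 6), Ier3 was the most abundant member in both ZT12 groups, at 19.9 in ZT12-EX and 18.6 in ZT12-SED, and stood at 10.6 in ZT0-EX and 12.9 in ZT0-SED. Srf averaged 7.41 in ZT12-EX, 7.27 in ZT12-SED, 14.2 in ZT0-EX and 11.2 in ZT0-SED, so that its mean exceeded that of Ier3 in ZT0-EX. In ZT12-EX the mean of Ier2 (7.45), and in ZT12-SED that of Ier5 (7.54), stood slightly above that of Srf. These 3 orders differed by flow cell. In ZT0-EX, Srf and Ier3 had 7.95 and 7.98 on flow cell 1, and 20.5 and 13.2 on flow cell 2. In ZT12-EX, Ier2 and Srf had 1.54 and 2.31 on flow cell 1, and 13.4 and 12.5 on flow cell 2. In ZT12-SED, Ier5 and Srf had 7.55 and 1.26 on flow cell 1, and 7.52 and 13.3 on flow cell 2. Ier2, Ier5 and Zfp36 had means between 3.00 and 7.68, and Egr1 between 1.03 and 2.26. Egr2, Egr3 and Arc were the scarcest, with means between 0.140 and 0.313. Their raw counts ran from 2 to 24 per library for Egr2, from 4 to 34 for Egr3 and from 1 to 33 for Arc. Markers of neurons, the cells in which Arc is best known, were scarce as well. The 8 markers summed to 8.49 to 16.0 CPM per library, with 8 of 8 above 0 in ZT12-EX, 7 in ZT12-SED, 6 in ZT0-EX and 8 in ZT0-SED, and their part in the level of Arc was not tested.

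**Figure D1:**
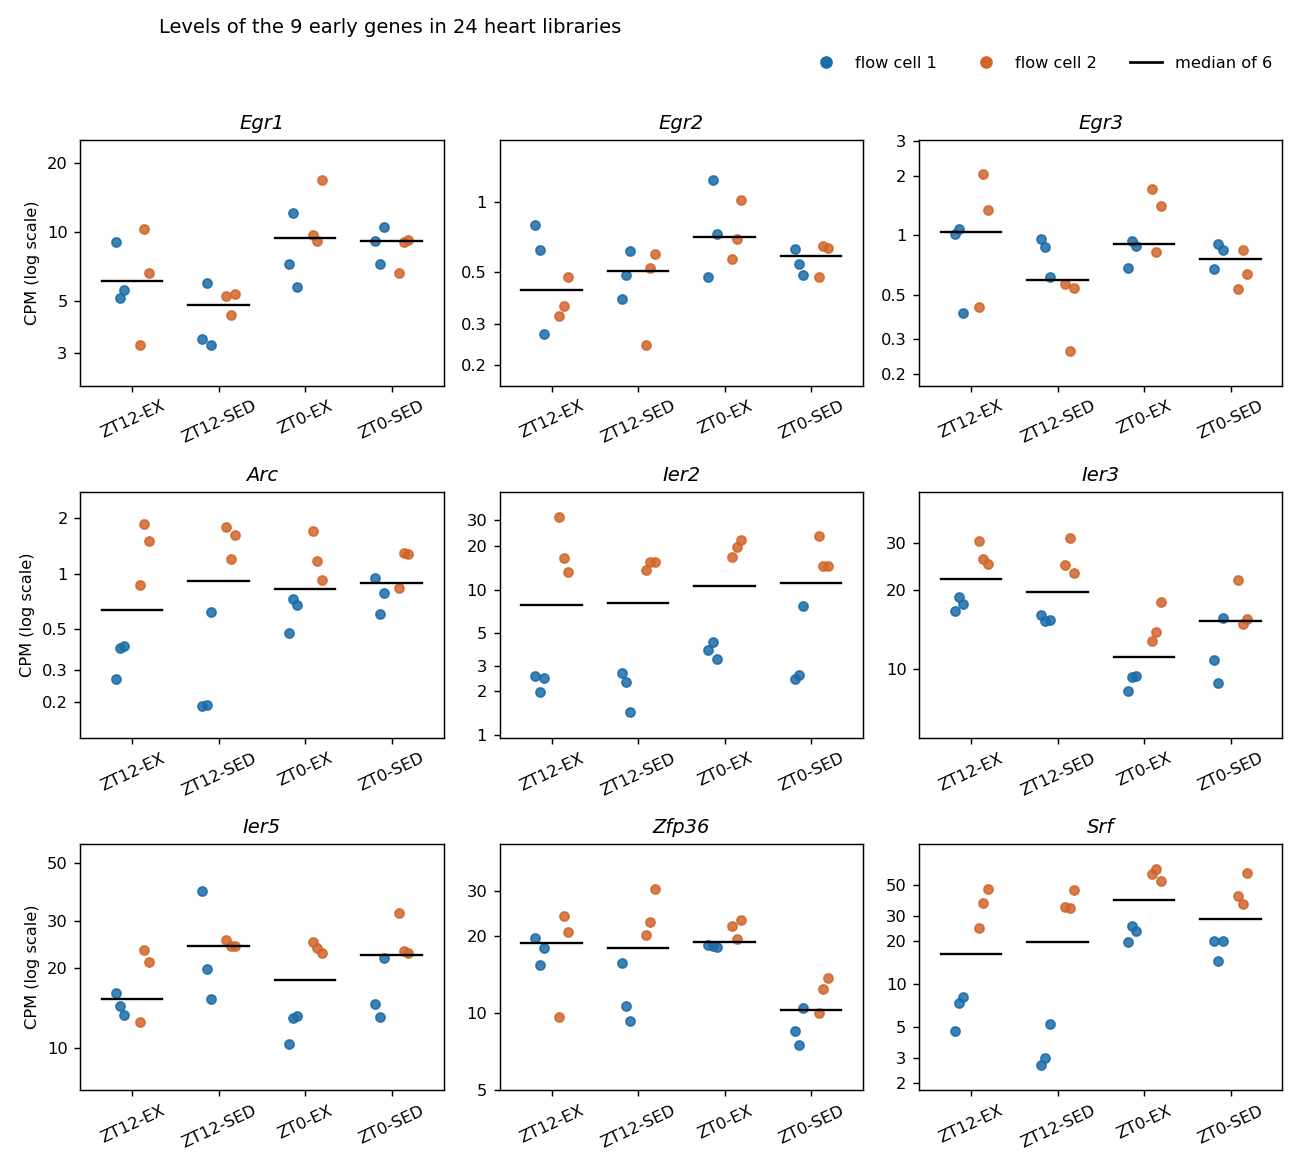
CPM of each of the 9 genes (log scale) in the 24 libraries, by group, with points coloured by flow cell and a bar at the median of 6. Zfp36 in ZT0-EX lies wholly above ZT0-SED, Egr1 in ZT12-SED lies wholly below ZT0-SED, and Ier2 and Srf split by flow cell within the groups.

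The first comparison asked which of the early genes responded to the treadmill run at ZT0. Zfp36 (ENSMUSG00000044786, chromosome 7) was the 1 gene of the 9 to pass an adjusted p of 0.05, and it was higher after exercise. Zfp36 had 18.2, 18.97 and 23.1 CPM (lowest, median and highest of 6) in ZT0-EX hearts, against 7.46, 10.2 and 13.7 CPM in ZT0-SED hearts. Every exercised heart was above every sedentary heart at ZT0. The rise was 0.95 ± 0.21 in log2 units (SE, n = 6 per group, a 1.93-fold change), with an adjusted p of 0.0218 by edgeR's quasi-likelihood test with Benjamini-Hochberg adjustment over 15294 genes. Of all genes tested in this comparison, 1.08% passed the threshold of 0.05, 0.791% were called higher, and 0.987% had all exercised hearts above all sedentary ones.

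On flow cell 1, Zfp36 had 18.2, 18.3 and 18.5 CPM in ZT0-EX hearts, against 7.46, 8.46 and 10.5 CPM in ZT0-SED hearts, a difference of 1.06 ± 0.27 (log2). None of these 6 libraries was muscle-marked. On flow cell 2 all 3 ZT0-EX libraries and ZT0-SED 6 were, and there Zfp36 had 19.4, 21.8 and 23.1 CPM in ZT0-EX hearts, against 9.98, 12.4 and 13.7 CPM in ZT0-SED hearts, a difference of 0.83 ± 0.26. The exercised hearts were higher on both flow cells, and the flow cells differed by -0.22 ± 0.37 (adjusted p = 1). Without the 6 muscle-marked libraries, which leaves ZT0-EX hearts on flow cell 1 alone, the value was 1.08 and the adjusted p 0.195, and the call was also lost on leaving out any of ZT0-EX 2, 3 and 6 and ZT0-SED 1, 2 and 4 (adjusted p from 0.051 to 0.0691). An antisense gene, Gm44710, overlaps exons of Zfp36 and averaged 7.96 counts per library. Whether counting used strand is not given, so its reads and those of Zfp36 may not be fully separated.

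None of the other 8 genes passed at ZT0. The EGR genes had positive values, with Egr1, the best-known early transcription factor of the family, at 5.77, 9.46 and 16.8 CPM in ZT0-EX hearts, against 6.65, 9.12 and 10.5 CPM in ZT0-SED hearts (0.21 ± 0.25, adjusted p = 0.734). Egr2 differed by 0.46 ± 0.28 (adjusted p = 0.543) and Egr3 by 0.52 ± 0.34 (adjusted p = 0.566). For Egr1 the exercised hearts lay on both sides of the sedentary ones, with 2 of them above all 6 and 1 below all 6. Among the IER genes, Ier2 stood at 0.01 ± 0.28, Ier3 at -0.30 ± 0.15 and Ier5 at -0.26 ± 0.22 (adjusted p = 0.995, 0.479 and 0.628). Srf itself stood at 0.34 ± 0.29 (adjusted p = 0.641). The median of the 9 log2 changes was 0.21, beside -0.01 over all genes.

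At ZT12 the question was the same for a run at the start of the active phase. None of the 9 genes passed by edgeR at ZT12, where 0.294% of all genes did, and none passed by DESeq2. The groups overlapped for every one of the 9, while all exercised hearts were above all sedentary ones for 0.17% of all genes and below them for 0.0915%. At an unadjusted p under 0.05 there were 3 of the 9, namely Egr1, Egr3 and Ier5, and 2504 of the 15294 genes. Egr1 had 3.24, 6.15 and 10.3 CPM in ZT12-EX hearts, against 3.24, 4.83 and 6.02 CPM in ZT12-SED hearts, a difference of 0.54 ± 0.26 (log2, SE, adjusted p = 0.301). Egr3 had 0.406, 1.04 and 2.03 CPM in ZT12-EX hearts, against 0.261, 0.592 and 0.959 CPM in ZT12-SED hearts (0.82 ± 0.37, adjusted p = 0.283). The difference of Egr3 was 0.08 ± 0.48 within flow cell 1 and 1.56 ± 0.48 within flow cell 2, and the flow cells differed by 1.49 ± 0.68 (adjusted p = 0.607). For Egr1, 3 exercised hearts were above all sedentary ones, and for Egr3, 4 were, while the others overlapped. Ier5, whose product takes part in heat shock factor signalling, had 12.5, 15.3 and 23.4 CPM in ZT12-EX hearts, against 15.3, 24.2 and 39.1 CPM in ZT12-SED hearts (-0.57 ± 0.22, adjusted p = 0.249). For Ier5, all 3 exercised hearts of flow cell 2 were below the sedentary ones, and those of flow cell 1 overlapped with them. The share of all genes that separate so within a flow cell was not counted.

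Zfp36 had 9.62, 18.8 and 23.9 CPM in ZT12-EX hearts, against 9.30, 18.0 and 30.5 CPM in ZT12-SED hearts (0.05 ± 0.21, adjusted p = 0.913). No ZT12-EX heart was above or below all ZT12-SED hearts. The pooled value averaged opposite signs of the flow cells. On flow cell 1, Zfp36 had 15.4, 17.9 and 19.6 CPM in ZT12-EX hearts, against 9.30, 10.7 and 15.7 CPM in ZT12-SED hearts (0.59 ± 0.27, adjusted p = 0.173), and on flow cell 2 it had 9.62, 20.7 and 23.9 CPM in ZT12-EX hearts, against 20.2, 22.7 and 30.5 CPM in ZT12-SED hearts (-0.43 ± 0.26, adjusted p = 0.856). The difference between the flow cells was -1.02 ± 0.37, with an unadjusted p of 0.0125 and an adjusted p of 0.604. The exercise effect on Zfp36 at ZT12 minus that at ZT0 was -0.90 ± 0.30 in log2 units, with an unadjusted p of 0.00584 and an adjusted p of 0.571. The difference between the effects at ZT12 and at ZT0 thus did not pass for Zfp36, nor for any other of the 9. By edgeR 0% of all genes passed that test (1226 at an unadjusted p under 0.05), and by DESeq2 5 genes did, none of them among the 9. Ier3 had the most positive difference of the effects, at 0.41 ± 0.21 (adjusted p = 0.571). The remaining genes at ZT12 lay between -0.15 for Arc and 0.33 for Ier2, with Srf at 0.21 ± 0.30 (adjusted p = 0.715).

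**Figure D2:**
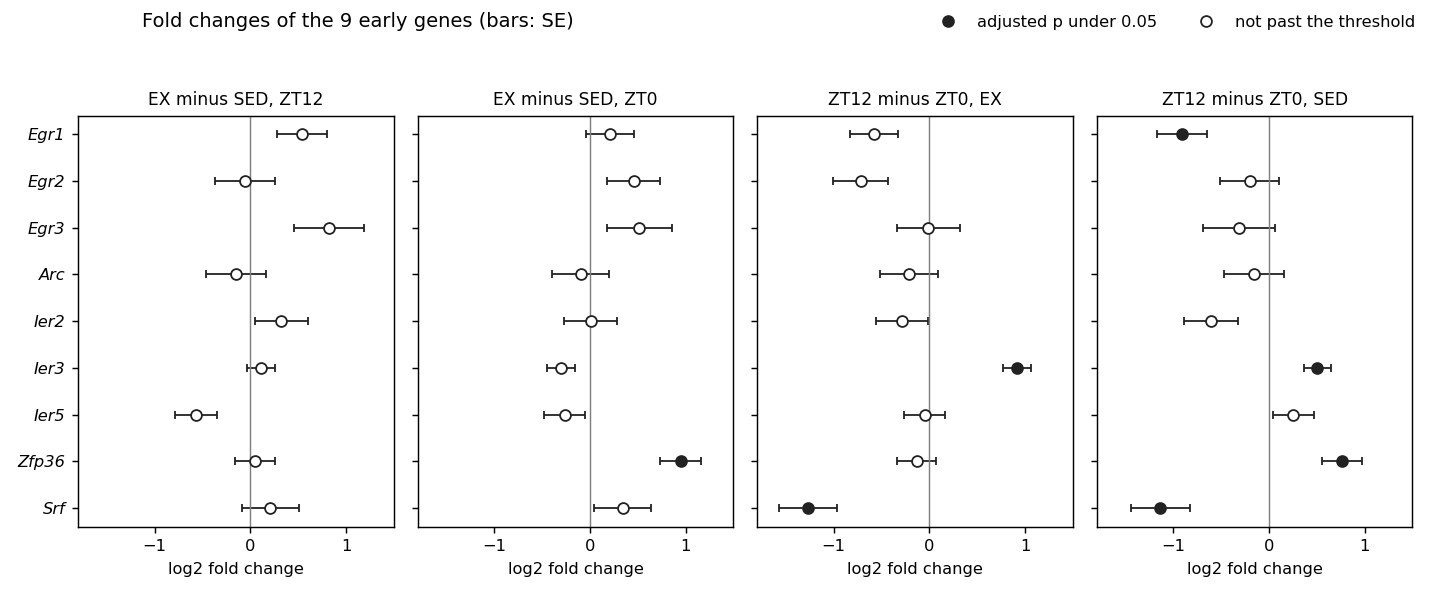
Log2 fold changes of the 9 genes with their standard errors in the exercise comparisons at ZT12 and ZT0 and in the time-of-day comparisons in exercised and sedentary mice (n = 6 per group). Filled points passed an adjusted p of 0.05, which were Zfp36 with exercise at ZT0, Ier3 and Srf in exercised mice, and Egr1, Ier3, Zfp36 and Srf in sedentary mice.

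Time of day was compared within exercised mice and within sedentary mice, which share no library. Ier3 (ENSMUSG00000003541, chromosome 17) was higher at ZT12 in both comparisons. In exercised mice, Ier3 had 16.6, 21.9 and 30.5 CPM in ZT12-EX hearts, against 8.24, 11.1 and 18.0 CPM in ZT0-EX hearts, a rise of 0.92 ± 0.15 (log2, SE, adjusted p = 0.00069). Across all 6 hearts per group the ranges met, with 4 ZT12-EX hearts above every ZT0-EX heart. Within each flow cell all 3 ZT12-EX hearts were above all 3 ZT0-EX hearts, by 0.97 ± 0.21 (flow cell 1) and 0.87 ± 0.21 (flow cell 2). How many of all genes separate so with 3 hearts per group was not counted. The call held on leaving out each of the 24 libraries, with adjusted p from 0.000226 to 0.00422. Of all genes, 1.65% passed in exercised mice, 0.811% higher and 0.837% lower at ZT12, and 2 of the 9 early genes did, 1 in each direction.

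In sedentary mice, Ier3 had 15.2, 19.7 and 31.3 CPM in ZT12-SED hearts, against 8.91, 15.2 and 21.7 CPM in ZT0-SED hearts, a rise of 0.51 ± 0.15 (adjusted p = 0.045). Here 3 of 6 ZT12-SED hearts were above all ZT0-SED hearts. The rise was 0.40 ± 0.21 within flow cell 1 and 0.61 ± 0.21 within flow cell 2. The call was lost under 16 of 24 omissions of a library (adjusted p from 0.0522 to 0.0936), namely ZT12-EX 2, 3 and 5, ZT12-SED 1 to 5, ZT0-EX 1 to 5 and ZT0-SED 1, 2 and 5.

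Zfp36 was also higher at ZT12 in sedentary mice. It had 9.30, 18.0 and 30.5 CPM in ZT12-SED hearts, against 7.46, 10.2 and 13.7 CPM in ZT0-SED hearts, a rise of 0.76 ± 0.21 (log2, SE, n = 6 per group, adjusted p = 0.0397). In all, 4 of the 6 ZT12-SED hearts were above every ZT0-SED heart. The rise was 0.41 ± 0.27 within flow cell 1, where the groups overlapped, and 1.02 ± 0.26 within flow cell 2. Zfp36 passed neither with flow cell 1 alone (0.38, adjusted p = 0.183) nor with flow cell 2 alone. It passed under 5 of 11 alternatives. In exercised mice the values were 9.62, 18.8 and 23.9 CPM in ZT12-EX hearts and 18.2, 18.97 and 23.1 CPM in ZT0-EX hearts (-0.13 ± 0.21, adjusted p = 0.822). The ZT12-SED median of 18.0 CPM fell between the flow cells, whose nearest hearts had 15.7 CPM (flow cell 1) and 20.2 CPM (flow cell 2). On flow cell 1 the mean of ZT12-SED hearts was 11.9 CPM, beside 17.7 CPM in ZT12-EX, 18.3 CPM in ZT0-EX and 8.80 CPM in ZT0-SED hearts. The order differed on flow cell 2. There ZT12-SED hearts had the highest mean, 24.5 CPM, beside 18.1 CPM in ZT12-EX, 21.4 CPM in ZT0-EX and 12.0 CPM in ZT0-SED hearts. The difference between the time-of-day effects in exercised and sedentary mice is the same contrast as that between the exercise effects, given above, and did not pass. The call in sedentary mice was lost under 12 omissions of a library (adjusted p from 0.0507 to 0.0828), namely ZT12-EX 3, ZT12-SED 1, 4, 5 and 6, ZT0-EX 2, 3 and 6 and ZT0-SED 1 to 4.

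Egr1 (ENSMUSG00000038418, chromosome 18) was lower at ZT12 in sedentary mice. It had 3.24, 4.83 and 6.02 CPM in ZT12-SED hearts, against 6.65, 9.12 and 10.5 CPM in ZT0-SED hearts. Every ZT12-SED heart was below every ZT0-SED heart, which was so for 0.811% of all genes. The change was -0.91 ± 0.26 (log2, SE, adjusted p = 0.0425), with -1.08 ± 0.38 within flow cell 1 and -0.73 ± 0.36 within flow cell 2. In exercised mice Egr1 had 3.24, 6.15 and 10.3 CPM in ZT12-EX hearts, against 5.77, 9.46 and 16.8 CPM in ZT0-EX hearts, and did not pass (-0.58 ± 0.25, adjusted p = 0.286). Egr1 transcripts are rich in GC, at 57.3% or the 89.0th percentile of genes tested, and with offsets for GC content the value in sedentary mice was -0.29 (adjusted p = 0.675). The call was lost under 11 omissions of a library (adjusted p from 0.0506 to 0.116), namely ZT12-EX 2 and 3, ZT12-SED 1, 3, 4 and 5, ZT0-EX 4 and 5 and ZT0-SED 1 to 3.

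Srf (ENSMUSG00000015605, chromosome 17) was lower at ZT12 in both comparisons, and its values divided by flow cell. On flow cell 1, Srf had 4.64, 7.33 and 8.07 CPM in ZT12-EX hearts, against 19.8, 23.7 and 25.5 CPM in ZT0-EX hearts. The flow cell 2 libraries had 24.7, 37.1 and 46.8 CPM in ZT12-EX hearts, against 53.4, 60.0 and 64.5 CPM in ZT0-EX hearts. All ZT12-EX hearts were below all ZT0-EX hearts of their own flow cell, by -1.78 ± 0.28 within flow cell 1 and -0.71 ± 0.27 within flow cell 2 (log2, SE). The share of all genes with such separation within a flow cell was not counted. Over all exercised mice the change was -1.27 ± 0.30 (adjusted p = 0.0272), and the flow cells differed by 1.07 ± 0.38 (adjusted p = 0.297). Each of the 6 exercised libraries of flow cell 1 was needed for the call, which was lost on leaving out any of ZT12-EX 1, 2 and 3 and ZT0-EX 1, 2 and 3 (adjusted p from 0.0534 to 0.0977).

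In sedentary mice on flow cell 1, Srf had 2.69, 3.01 and 5.24 CPM in ZT12-SED hearts, against 14.6, 20.1 and 20.3 CPM in ZT0-SED hearts. The flow cell 2 libraries had 34.3, 35.0 and 45.9 CPM in ZT12-SED hearts, against 36.8, 41.5 and 60.3 CPM in ZT0-SED hearts. The ranges were far apart on flow cell 1 and overlapped on flow cell 2. The change was -2.27 ± 0.30 within flow cell 1 and -0.27 ± 0.27 within flow cell 2, and the difference between the flow cells, 2.00 ± 0.40, passed with an adjusted p of 0.0094, as it did for 13.1% of all genes. Over all sedentary mice the change was -1.14 ± 0.31 (adjusted p = 0.0362), and leaving out any of ZT12-SED 1, 2 and 3 or ZT0-SED 1, 2 and 3, all on flow cell 1, ended the call (adjusted p from 0.0614 to 0.11).

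Srf transcripts were among the most GC-rich of all, at 64.4% and the 99.6th percentile of genes tested. With offsets for GC content, Srf changed by -0.35 in sedentary mice (adjusted p = 0.321), and the difference between flow cells was 0.32 (adjusted p = 0.883). Those offsets take out what moves with GC content in each library, and on flow cell 1 that relation was steepest in the ZT12-SED libraries. With the same offsets Srf remained lower at ZT12 in exercised mice, by -0.74 ± 0.19 (adjusted p = 0.0304).

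In sedentary mice 5.2% of all genes passed, 2.46% higher and 2.74% lower at ZT12, and 4 of the 9 early genes did, 2 higher and 2 lower. The median log2 change of the 9 was -0.22 in exercised and -0.20 in sedentary mice, beside 0.02 and -0.01 over all genes. Ier2, a nuclear early gene product, had the next lowest value, -0.60 ± 0.28 in sedentary mice (adjusted p = 0.141). Its values divided by flow cell in every group, with 1.97 to 2.56 CPM on flow cell 1 and 13.2 to 31.2 CPM on flow cell 2 in ZT12-EX, 1.44 to 2.69 and 13.5 to 15.5 CPM in ZT12-SED, 3.33 to 4.40 and 16.8 to 22.0 CPM in ZT0-EX, and 2.43 to 7.74 and 14.4 to 23.2 CPM in ZT0-SED. Ier2 lay at the 97.6th percentile of GC content, and its value in sedentary mice with GC offsets was 0.11. Arc, at the 94.0th percentile, had a log2 change of -0.97 within flow cell 1 and 0.42 within flow cell 2 in sedentary mice. The difference of 1.39 between the flow cells did not pass for Arc (adjusted p = 0.0976), and did without ZT12-SED 3 (2.41, adjusted p = 0.0148). Egr2, Egr3 and Ier5 did not pass in either time-of-day comparison, with Egr2 at -0.72 ± 0.29 in exercised mice (adjusted p = 0.248).

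**Figure D3:**
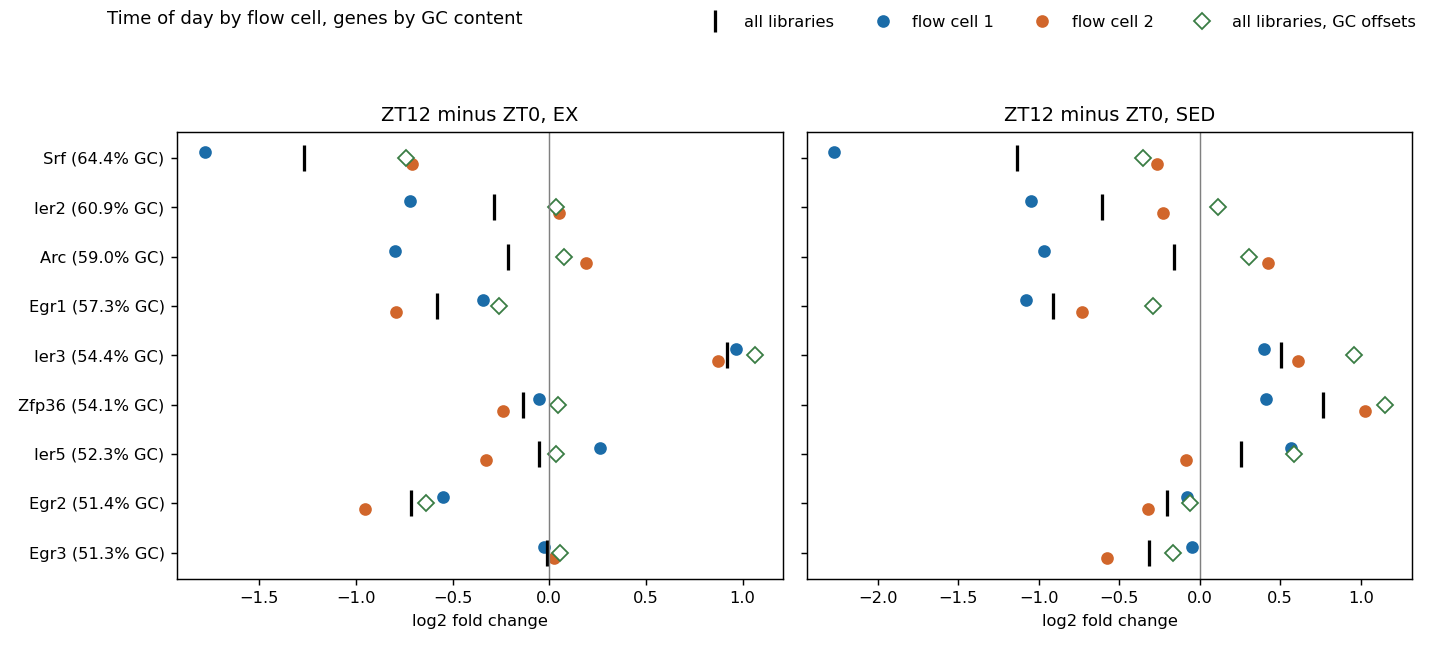
Log2 fold change from ZT12 minus ZT0 for the 9 genes, ordered by transcript GC content, in exercised and sedentary mice, for all libraries (bars), each flow cell (circles) and all libraries with GC offsets (diamonds). Srf, the most GC-rich, had -2.27 for flow cell 1 and -0.27 for flow cell 2 in sedentary mice, while Ier3 was above 0 at every point.

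The rest of the pathway was described with lists chosen with earlier results known. Of 8 other early genes that depend on serum response factor, 4 rose with exercise at ZT0, 0 fell and 4 did not pass, beside 0.791% of all genes called higher and 1.08% in either direction. The list median was 0.89. Nr4a1, which encodes an orphan nuclear receptor, had 18.7, 31.8 and 63.0 CPM in ZT0-EX hearts, against 1.93, 4.95 and 9.38 CPM in ZT0-SED hearts (2.88 ± 0.39, adjusted p = 0.000126). Fos, a subunit of AP-1, rose by 1.74 ± 0.39, the MAP kinase phosphatase gene Dusp1 by 0.91 ± 0.18 and the antiproliferative gene Btg2 by 0.87 ± 0.17. Fosb differed by 2.14 ± 0.57 but did not pass (adjusted p = 0.0761). At ZT12, Nr4a1 rose by 2.53 ± 0.39 (adjusted p = 0.00218) and was the 1 of 8 to pass, with 11.7, 28.5 and 61.8 CPM in ZT12-EX hearts, against 1.73, 4.91 and 11.8 CPM in ZT12-SED hearts. Nr4a1 did not pass at ZT12 with flow cell 1 alone (2.65, adjusted p = 0.062) or flow cell 2 alone (2.54, adjusted p = 0.142), nor at ZT0 with flow cell 2 alone (2.45, adjusted p = 0.0651). Fos at ZT12 stood at 0.82 ± 0.41 (adjusted p = 0.314). The Fos call at ZT0 was lost under 7 omissions of a library. Without the muscle-marked libraries Fos, Dusp1 and Btg2 did not pass at ZT0 (adjusted p = 0.188, 0.173 and 0.138), nor did they within either flow cell. Of 11 alternatives at ZT0, Fos passed under 7, Dusp1 under 8 and Btg2 under 8.

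Of 18 cytoskeletal and matricellular targets of the myocardin-related factors, Ccn2, a secreted matricellular protein gene, was the 1 that passed with exercise at ZT0. It rose by 1.14 ± 0.28 (adjusted p = 0.0473), and the list median was 0.04. That call was lost under 17 omissions of a library. At ZT12 none of the 18 passed and the list median was 0.63, with Tagln at 1.35 ± 0.33 and Myl9 at 1.20 ± 0.29, both smooth muscle genes (adjusted p = 0.0848 for both). Tagln and Myl9 had 2.11 and 1.85 within flow cell 1, and 0.65 and 0.76 within flow cell 2. By DESeq2, which called 226 genes in this comparison, 5 of the 18 passed, namely Acta2, Tagln, Cnn1, Myl9 and Ccn1 (adjusted p = 0.00836 for Tagln and 0.00834 for Myl9). None of the 6 cofactors of serum response factor and none of 9 tested ERK cascade genes passed with exercise at either time (Rps6ka4 was not analysed here), the nearest being Elk3 at ZT0 (-0.39 ± 0.12, adjusted p = 0.153), for which DESeq2 gave an adjusted p of 0.00408.

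**Figure D4:**
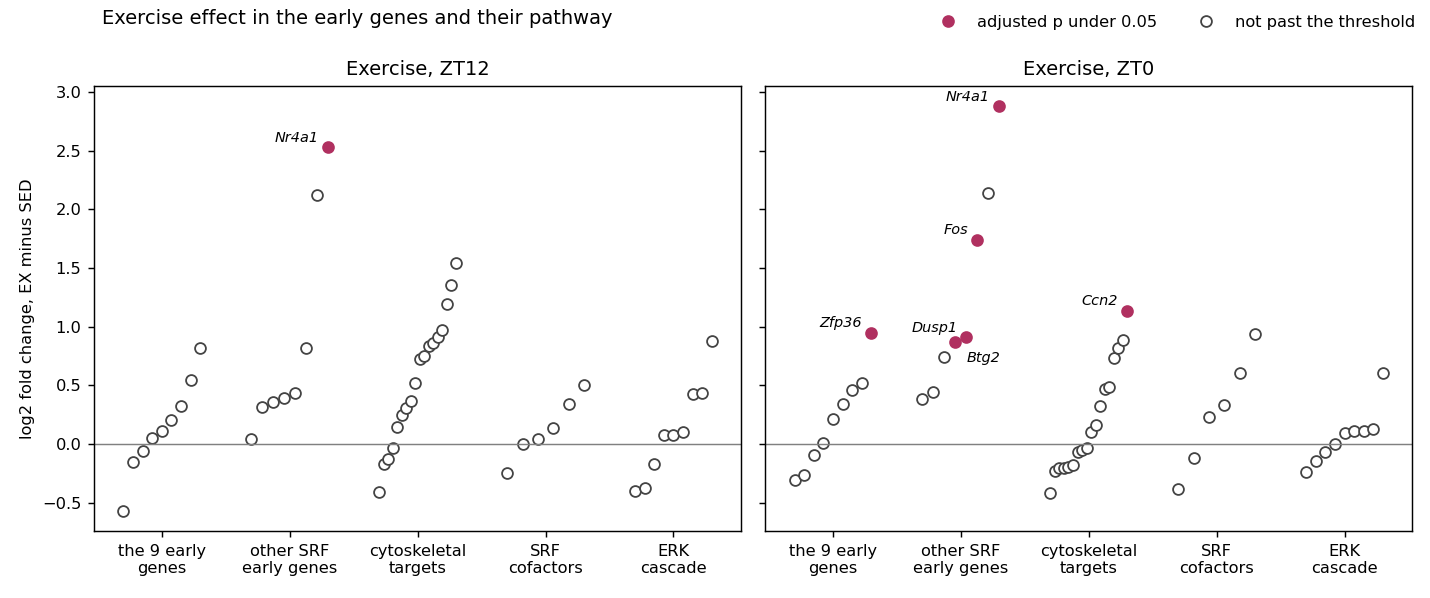
Log2 fold changes with exercise at ZT12 and at ZT0 of the 9 early genes and of 4 lists of their pathway, each point 1 gene, sorted within its list. Filled points passed an adjusted p of 0.05, which was Nr4a1 at ZT12, and Nr4a1, Fos, Dusp1, Btg2, Zfp36 and Ccn2 at ZT0.

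By time of day in sedentary mice, 4 of the 18 cytoskeletal targets were lower at ZT12 and 1 was higher, beside 2.74% and 2.46% of all genes. That count of 5 ranged from 0 to 12 over the other settings and from 1 to 9 on leaving out 1 library. The smooth muscle and actin genes Myl9 (-1.09 ± 0.29), Acta2 (-1.08 ± 0.27), Cnn2 (-1.01 ± 0.23) and Actb (-0.76 ± 0.19) fell, and Ccn2 rose by 1.06 ± 0.28. None of these 5 passed with flow cell 2 alone. Within flow cell 1 the value was -2.02 for Myl9 and -2.01 for Acta2, and within flow cell 2 it was -0.33 for Myl9 and -0.30 for Acta2. Mrtfb, a myocardin-related cofactor, rose by 0.63 ± 0.18, the kinase gene Rps6ka5 by 0.87 ± 0.23, and Mcl1, a survival gene, by 0.70 ± 0.19. These 3 calls were lost under 12, 5 and 6 omissions of a library and with flow cell 2 alone, where the values were 0.64 for Mrtfb, 0.38 for Rps6ka5 and 0.21 for Mcl1. They were also lost with no flow cell term and with the compared groups alone. In exercised mice none of these lists had a gene past the threshold in the main edgeR fit. None of 6 tested relatives and partners of the EGR, IER and ZFP36 proteins passed in any comparison of that fit. Egr4 had a count of 0 in every library. Of 8 mRNAs known to be destabilised by ZFP36, 3 passed the filter and none was called in the main edgeR fit. With exercise at ZT0, Ccl2 stood at -0.98 ± 0.30 (adjusted p = 0.177), Cxcl1 at -0.37 ± 0.34 and Ptgs2 at 0.63 ± 0.43. At ZT0 Ccl2 passed under 1 of 11 alternatives. With exercise at ZT12, Cxcl1 stood at -0.74 ± 0.34, Ccl2 at -0.61 ± 0.32 and Ptgs2 at 0.71 ± 0.39 (adjusted p = 0.287, 0.33 and 0.356). Ptgs2, which encodes cyclooxygenase-2, came nearest by time of day, at 1.52 ± 0.40 in exercised (adjusted p = 0.0543) and 1.43 ± 0.43 in sedentary mice (adjusted p = 0.0516). It did pass by DESeq2 in exercised (1.51, adjusted p = 0.0109) and sedentary mice (1.41, adjusted p = 0.0128), and by edgeR with DESeq2 size factors (adjusted p = 0.0491 in exercised and 0.0477 in sedentary mice).

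Across the 24 libraries, after removal of the flow cell mean, the 9 genes did not vary as a block. The Pearson r of log2 CPM over their 36 pairs had a median of 0.08 and ran from -0.66 to 0.72, the highest being Arc with Srf. These values share library depth and GC content and are given as a description. The genes whose pattern was most like the mean of the 9 were Hspa1l (r = 0.80), Junb (0.76), Aacs (0.75), Hmga1 (0.73), Tpst2 (0.73) and Cep170b (0.72). For single genes the closest were Xbp1 for Egr1 (0.83), Tiam2 for Egr2 (0.71), Nfatc1 for Egr3 (0.67), Rplp1 for Ier2 (0.87), Rrs1 for Ier5 (0.91) and Rgma for Arc (0.85). Ier3 was closest to Dbp (0.89), a clock output factor, Zfp36 to Sgk1 (0.87), a glucocorticoid-responsive kinase gene, and Srf to Kifc3 (0.98). The element TTANGTAA, to which factors of the DBP family bind, was searched after this was seen. It occurred in 2.32% of all windows and was not found in that of Ier3. At that share most windows lack it, and sites outside the window were not searched. Whether factors of this family act on Ier3 was not tested.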

How the data were processed

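Deposited values are raw read counts per Ensembl gene, 1 library per mouse, with 52350 genes each. Per the submitters' processing notes, the authors' tools were Trimmomatic 0.39 for trimming, HISAT2 2.2.1 for alignment, with GRCm39 as the build, and featureCounts 2.0.1 for counting. The sources used here give no settings, annotation release or strand use. The libraries were poly-A selected, per the labels' protocols. Symbols, lengths and GC content came from a GRCm38 annotation matched by identifier.

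The test was the quasi-likelihood F test of edgeR 4.0.16 under R 4.3.3 (filterByExpr on the groups, TMM scaling, robust quasi-likelihood fit) on all 24 libraries with group and flow cell as terms, leaving 19 residual degrees of freedom, and with Benjamini-Hochberg adjustment over 15294 genes. Flow cell differences and values by flow cell came from a fit with a mean for each group and flow cell. Shares of all genes with separate ranges were counted over 6 hearts per group and not within a flow cell. A positive flow cell difference means a higher log2 change on flow cell 2. Adjusted p-values without another tool's name come from edgeR. The fit shares 1 spread over groups, whereas residual SDs of log2 CPM had a median of 0.474 at ZT12 and 0.295 at ZT0. Each ± is a standard error taken as the size of the log2 change over the square root of its F statistic, and includes variation between mice. For some scarce genes it does not match the p-value, and none is printed in the text for Arc. No pair of libraries in a group looked like a repeated deposit (60 pairs). The scripts were tested on simulated data.

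The 9 genes, the pathway and marker lists and the naming rule (all 9 genes, up to 6 genes past the threshold per list and comparison, otherwise the 2 of smallest p, and the genes most like each) were chosen with earlier results of these data known. Fosb, Fos, Acta2, Cnn1, Ccn1 and Ptgs2 at ZT12, Cxcl1 at ZT0, and the motif TTANGTAA, were chosen after their values were seen, as was the window of Egr2. Alternatives were DESeq2 size factors, DESeq2 1.42.0, no filter, replicate blocks, each flow cell alone, no flow cell term, the compared groups alone, GC offsets, and omission of libraries.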

Additional observations from a re-analysis of the deposited data

Results flagged for a closer look

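The time-of-day difference of Srf in sedentary mice was not the same on both flow cells. ZT12-SED hearts had 2.69 to 5.24 CPM on flow cell 1 and 34.3 to 45.9 CPM on flow cell 2, against 14.6 to 20.3 CPM and 36.8 to 60.3 CPM in ZT0-SED hearts. The log2 change on flow cell 2 minus that on flow cell 1 was 2.00 ± 0.40 (SE, 3 mice per group and flow cell, adjusted p = 0.0094 by edgeR). The difference did not pass without the 6 muscle-marked libraries (2.09, adjusted p = 0.0792), without the 3 least correlated libraries (1.54, adjusted p = 0.0878) or with GC offsets (0.32, adjusted p = 0.883). GC content, muscle transcripts and mitochondrial share moved with flow cell and group in these libraries, as given in the report, and beyond these alternatives their part was not tested. Among 36 groups of 6 values, which pool both flow cells, none had a single heart far from the rest by Dixon's criterion. Where a gene divides by flow cell, as Srf and Ier2 did, that criterion cannot find a heart far from the others of its own flow cell.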

How the results depend on the processing

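Log2 values and counts are given here by alternative, and where no cause is named it was not tested. The 9 genes had 0, 1, 0, 2 and 4 calls for exercise at ZT12, exercise at ZT0, the difference of these effects, time of day in exercised and time of day in sedentary mice, and all genes had 45, 165, 0, 252 and 795. With DESeq2 size factors, Ier2 with exercise at ZT0 turned to -0.0071 from a value near 0, and no count moved by over 1.5 times. With DESeq2, 226, 267, 5, 535 and 2917 genes passed, the same early genes were called, and Ier2 at ZT0 was -0.012. With no filter, the early genes called by time of day in sedentary mice were 2 (Egr1 and Srf), with 478 genes in all there and 1 for the difference of effects.

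On flow cell 1 alone, 20, 39 and 6552 genes passed for exercise at ZT12, at ZT0 and time of day in sedentary mice, and 0 early genes with exercise at ZT0 and 2 in sedentary mice (Egr1 and Srf). Signs turned for Egr2 at ZT12 (0.11), Egr1 (-0.10) and Ier2 (-0.13) at ZT0, Arc (0.20) and Srf (0.52) in the difference of effects, and Ier5 in exercised mice (0.27). On flow cell 2 alone, 4, 13, 17 and 35 genes passed in the 4 comparisons of groups, and 0 early genes in each. Signs turned for Zfp36 (-0.41) and Srf (-0.060) at ZT12, Arc at ZT0 (0.12), Egr1 in the difference of effects (-0.011), Egr3 (0.067), Ier2 (0.11), Arc (0.24) and Zfp36l2 (-0.0045) in exercised mice, and Ier5 (-0.099) and Arc (0.41) in sedentary mice. These fits hold 3 mice per group. Without a flow cell term, 10, 51, 62 and 129 genes passed and 0 early genes in each comparison, with Zfp36 at ZT12 at -0.026 and Arc in sedentary mice at 0.032. With the compared groups alone, 14 and 413 genes passed for exercise at ZT12 and ZT0 and 243 in sedentary mice, where 1 early gene (Egr1) was called, and Egr3 in exercised mice was 0.011.

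Without the muscle-marked libraries (mean log2 CPM of skeletal muscle markers above 3), 51, 86 and 3133 genes passed for exercise at ZT0 and for time of day in exercised and sedentary mice, 0 early genes passed at ZT0, and signs turned for Egr1 (-0.016), Arc (0.046) and Mapk3 (0.073) at ZT0 and Egr3 (0.28) and Ier5 (0.22) in exercised mice. Without the 3 least correlated libraries, 381, 1, 1017 and 437 genes passed for exercise at ZT0, the difference of effects and both times of day, and 2 early genes in sedentary mice (Egr1 and Zfp36). Signs turned there for Srf (-0.097), Map2k2 (-0.13) and Elavl1 (0.12) at ZT12, Ier5 (0.20) and Map2k2 (-0.015) in the difference of effects, Egr3 (0.14), Ier5 (0.085) and Zfp36 (0.012) in exercised mice, and Ier5 (-0.11) and Arc (0.084) in sedentary mice. With GC offsets, 261, 1 and 403 genes passed for exercise at ZT0, the difference of effects and exercised mice, and 2 early genes in sedentary mice (Ier3 and Zfp36). Signs turned for Ier2 (-0.041), Ier3 (-0.20), Zfp36 (-0.19) and Srf (-0.057) at ZT12, Ier2 (-0.075) in the difference of effects, Egr3 (0.056), Ier2 (0.037), Ier5 (0.037), Zfp36 (0.046) and Arc (0.079) in exercised mice, and Ier2 (0.11), Arc (0.31) and Nab2 (0.029) in sedentary mice.

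For the differences between flow cells, 0, 0, 0 and 1998 genes passed. With no filter these were 125, 31 and 549 in the first 3 comparisons, and with DESeq2 18 for exercised and 3145 for sedentary mice. The call of Srf and all 1998 were lost (0 and 0) without the muscle-marked libraries, without the 3 least correlated libraries and with GC offsets.

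Leaving out each library in turn, the early genes called ranged from 0 to 1 for exercise at ZT0, 1 to 2 in exercised and 0 to 4 in sedentary mice, and 1 to 2 for the flow cell difference in sedentary mice. Genes called ranged from 22 to 77, 91 to 231, 0 to 1, 135 to 455 and 305 to 3273, and from 0 to 27 (exercise at ZT12) and 510 to 3933 (sedentary mice) for flow cell differences. Values that crossed 0 were uncalled and small: Egr2 (-0.26 to 0.099) and Zfp36 (-0.074 to 0.22) at ZT12; Ier2 (-0.11 to 0.39) and Arc (-0.25 to 0.076) at ZT0; Egr3 (-0.0058 to 0.48), Ier2 (-0.054 to 0.42), Arc (-0.29 to 0.11) and Srf (-0.29 to 0.073) in the difference of effects; Egr3 (-0.31 to 0.18), Ier5 (-0.14 to 0.059), Zfp36 (-0.22 to 0.018) and Cxcl1 (-0.057 to 0.48) in exercised mice; and Ier5 (-0.011 to 0.35) in sedentary mice. Same-numbered libraries of different groups had a median correlation of deviations of 0.0065, with 15 of 36 pairs over 0.1. Libraries of other numbers on the same flow cell had a median of -0.022, with 20 of 72 pairs over 0.1. In all, 10 of 24 libraries matched their own number best. These values do not decide whether replicate numbers pair the mice. With replicate number as a block, 3 early genes were called in sedentary mice (Ier3 had an adjusted p of 0.0583), the early genes called in the other comparisons were the same, and Ccn2 at ZT0 (adjusted p = 0.0501) and Mcl1 in sedentary mice (adjusted p = 0.0528) did not pass. Depth limited Egr2, Egr3 and Arc most, with counts as low as 1 per library.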
